A study of Homo sapiens with 9 samples.

Results

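The genes described here belong to or act on the anaphase-promoting complex (APC/C), and 10 of the 58735 genes of the deposited table were chosen by name. They are the ubiquitin-conjugating (E2) enzymes UBE2C and UBE2S, the co-activators CDC20 and FZR1, the inhibitor FBXO5, the securin PTTG1, the separase ESPL1 and the subunits CDC27, ANAPC1 and ANAPC11. RNA came from KHM-5M, an established thyroid cancer cell line, exposed for 24 h to YK-4-279, an inhibitor of ETS transcription factors, at 0.3 or 1 μM, or to DMSO alone. Each of the 3 groups had 3 samples of this single line, so that all groups share its genotype, and no other agent was named. The study's methods call its replicates biological but count 2 per condition, and the labels, which give 3, do not say whether they came from separate cultures, so p-values measure the spread between these samples, part of which may be technical.

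The APC/C is a ubiquitin ligase of many subunits that marks mitotic proteins for destruction. UBE2C places the first ubiquitins on a substrate and UBE2S extends the chain. CDC20 activates the complex from mitotic entry until anaphase, and FZR1 (also called CDH1) takes over at mitotic exit and in G1. FBXO5 (EMI1) holds the complex inactive in S phase and G2, and the spindle checkpoint restrains CDC20 until chromosomes are attached. Destruction of securin frees separase, which cuts cohesin and lets sister chromatids part.

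Counts summed to between 16903251 and 18238884 per sample. The limit of detection, 3 counts where a gene is at 0, was 0.164 to 0.177 CPM (counts scaled to each total) and covers counting error only. The 9 pairs of samples within groups differed by more than sampling noise, with chi-square per degree of freedom from 3.2 to 10.66. Of the thyroid follicular markers, PAX8 was present (22.8 ± 0.774 FPKM in DMSO, SD, n = 3), whereas TG, TSHR and SLC5A5 were at or near 0. The epithelial keratins KRT8 and KRT18 were abundant and CDH1 was near 0. Leukocyte markers summed to 13 to 26 counts per sample in DMSO, 12 to 24 at 0.3 μM and 30 to 41 at 1 μM, with PTPRC and CD3E at or near 0. CD14, the only leukocyte marker tested, rose at 1 μM from 8 to 21 counts per sample to 30 to 37 (log2 fold change 1.07, adjusted p = 0.0484), a call kept in 5 of 14 alternative settings. Of the 6 fibroblast markers 3 were tested, of which COL1A1 fell (−0.41, adjusted p = 0.0132), PDGFRA rose from 3 to 11 counts per sample to 24 to 29 (1.62, adjusted p = 0.0159) and LUM did not pass the test (0.33, adjusted p = 0.11). Their sum was 7200 to 9752 counts in the DMSO samples and lower, 6118 to 7007, at 1 μM, and endothelial markers summed to 76 to 112 counts. The nuclear-retained RNAs MALAT1, NEAT1 and KCNQ1OT1 fell at 1 μM (3 of 3, median log2 fold change −0.96), while 0 of 13 mitochondrially encoded mRNAs passed the test by edgeR. MT-CYB was nearest (0.37, edgeR adjusted p = 0.0501) and was called in 7 of 14 alternative settings. Over these settings 0 to 4 of the 13 were higher and 0 to 1 lower. The part of these shifts in the results for the APC/C genes was not tested.

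In DMSO the genes fell into an abundant and a less abundant tier. The values here are deposited FPKM, that is, counts scaled by library size and by 1 deposited length per gene. That length need not be the length of the mRNA present, so the order of genes depends on it. CDC20 was highest at 186 ± 10.7 (SD, n = 3), then UBE2C at 148 ± 0.893, UBE2S at 118 ± 6.22 and PTTG1 at 95.4 ± 6.10, and the ranges of neighbours in this order did not overlap. ANAPC11 followed at 22.1 ± 1.14. ESPL1 (16.7 ± 0.887), CDC27 (16.3 ± 1.21), FZR1 (16.2 ± 1.46) and FBXO5 (14.2 ± 0.559) came next, each overlapping its neighbour in this order, although FBXO5 lay below all samples of ESPL1 and CDC27. ANAPC1 was lowest at 7.49 ± 0.353. All 10 genes passed the filter on low counts in every comparison, with between 645 and 7694 counts per sample. On this scale the mitotic co-activator was 11.4 times as abundant as the G1 co-activator at the level of mRNA. The deposited lengths behind this ratio were 2038 bases for CDC20 and 5802 for FZR1.

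The 1 μM dose was compared with DMSO to ask which parts of the APC/C machinery moved. UBE2C fell to 73.8% and FBXO5 to 70.9% of the DMSO level in FPKM, and no other gene of the 10 passed edgeR's quasi-likelihood test at an adjusted p under 0.05. This is 2 of 10, beside 17.6% of the 15617 genes tested, and 0 of the 10 rose. Lower genes made up 9.95% and higher genes 7.67% of all genes tested. Neither fall reached 1.5-fold, whereas 5.51% of all genes tested both passed the test and went past 1.5-fold. The median log2 fold change of the 10 genes was −0.05, beside −0.01 over all genes tested.

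Of the E2 enzymes, which act in turn on the same chain, UBE2C fell and UBE2S did not pass the test. UBE2C (ENSG00000175063; GRCh38, chr20:45812576-45816957, + strand) had FPKM of 148, 149 and 147 in DMSO, 144, 136 and 149 at 0.3 μM and 102, 113 and 112 at 1 μM. The 3 samples at 1 μM lay below all 6 others, and the samples at 0.3 μM overlapped those in DMSO. The raw counts were 3300, 3469 and 3225 in DMSO, 3309, 3179 and 3347 at 0.3 μM and 2424, 2514 and 2438 at 1 μM. The log2 fold change at 1 μM was −0.46 (SE 0.06, 95% interval −0.58 to −0.33, edgeR adjusted p = 0.000174), and mean FPKM stood at 73.8% of DMSO. The fall passed the test under each of 14 other settings, with log2 fold changes from −0.48 to −0.40.

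UBE2S (ENSG00000108106; chr19:55399745-55407777, − strand) had FPKM of 124, 112 and 119 in DMSO, 116, 116 and 132 at 0.3 μM and 112, 141 and 141 at 1 μM. Replicates 2 and 3 at 1 μM were above all others, and replicate 1 was among the DMSO values. The log2 fold change was 0.13 (SE 0.08, 95% interval −0.05 to 0.30, adjusted p = 0.299), which does not pass the test. Without replicate 1 at 1 μM, UBE2S was called higher, with a log2 fold change of 0.24 and an adjusted p of 0.0276 by edgeR. UBE2S overlaps RPL28, a ribosomal protein gene on the opposite strand, over 3506 bases, and RPL28 had 270% of the UBE2S count. Whether strand was used in counting is not given in the sources used here, so the UBE2S level is uncertain.

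**Figure D1:**
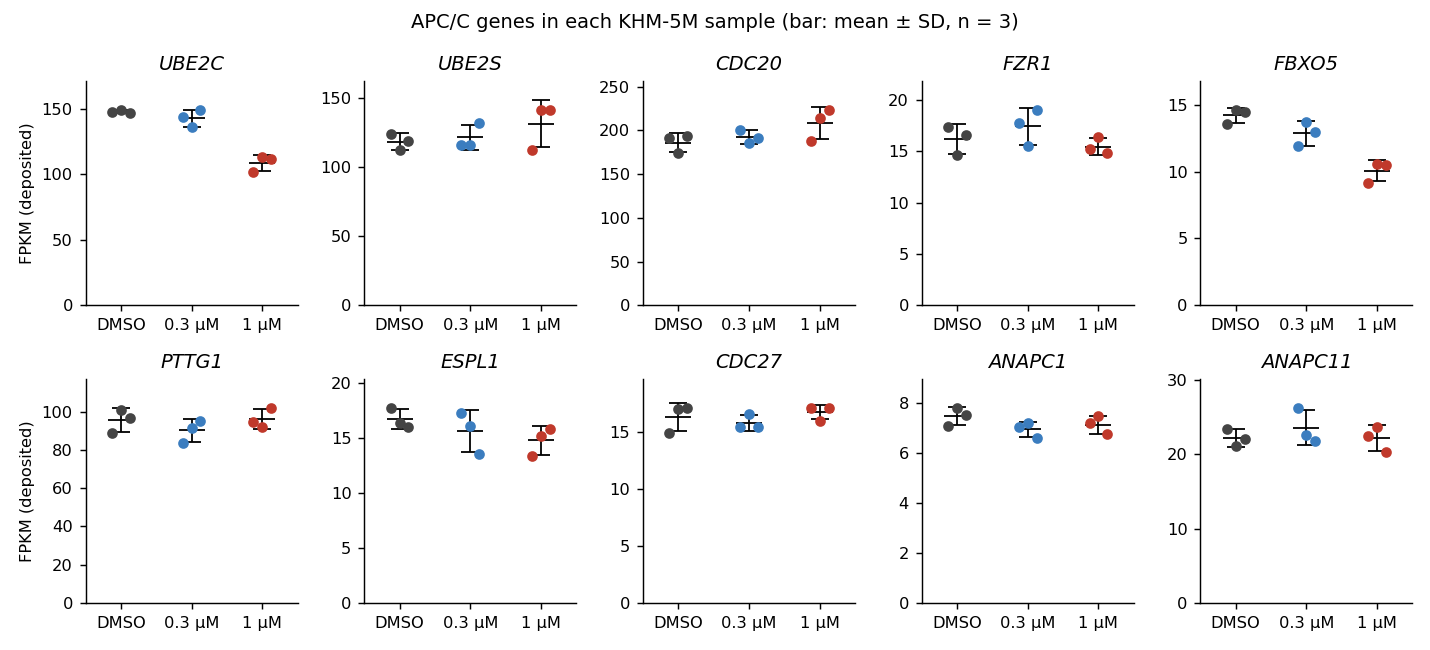
Deposited FPKM (vertical axes, starting at 0) of the 10 genes in each of the 9 samples, by group (horizontal axes); points are samples and bars are mean ± SD with n = 3. The UBE2C samples at 1 μM sit between 102 and 113, below the lowest other sample at 136, and those of FBXO5 between 9.15 and 10.6, below 11.9.

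The ratio of UBE2C to UBE2S within each sample was lower at 1 μM than in DMSO. On the log2(FPKM + 0.1) scale it was 0.32 ± 0.08 in DMSO (SD, n = 3), 0.24 ± 0.07 at 0.3 μM and −0.26 ± 0.12 at 1 μM, that is, a linear ratio of 1.25 in DMSO and 0.838 at 1 μM. The ratios ranged from 0.25 to 0.41 in DMSO and from −0.33 to −0.12 at 1 μM and did not overlap. The difference of −0.58 had a two-sided exact permutation p of 0.1, which is the smallest that 3 against 3 samples allows (0.3 adjusted over 6 ratio tests). At 0.3 μM the exact p was 0.3 (0.45 adjusted). These ratios carry the uncertainty of the UBE2S count. Their sign also depends on the deposited lengths, 1286 bases for UBE2C and 2788 for UBE2S. By raw counts UBE2S was above UBE2C in every sample, with 5656 to 5999 beside 3225 to 3469 in DMSO.

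The co-activators did not pass the test in either direction. CDC20 (ENSG00000117399; chr1:43358955-43363203, + strand) had FPKM of 191, 174 and 193 in DMSO, 201, 185 and 191 at 0.3 μM and 188, 214 and 223 at 1 μM. Replicates 2 and 3 at 1 μM were the highest of the 9, and replicate 1 was within the DMSO range. The log2 fold change was 0.15 (SE 0.07, adjusted p = 0.16), and the interval of the fold ran from 0.999 to 1.23. It was called higher without replicate 1 at 1 μM (0.22, adjusted p = 0.0414) and with no filter on low counts (0.17, adjusted p = 0.0362).

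FZR1 (ENSG00000105325; chr19:3506273-3538330, + strand) had FPKM of 17.4, 14.6 and 16.6 in DMSO, 17.8, 15.5 and 19.0 at 0.3 μM and 15.2, 16.4 and 14.8 at 1 μM. The 3 groups overlapped, and the log2 fold change at 1 μM was −0.09 (SE 0.07, 95% interval −0.24 to 0.07, adjusted p = 0.46). The log2 ratio of CDC20 to FZR1 was 3.52 ± 0.06 in DMSO and 3.74 ± 0.15 at 1 μM (SD, n = 3), with no overlap and an exact permutation p of 0.1 (0.3 adjusted). FZR1 overlaps MFSD12 on the opposite strand over 70 bases.

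FBXO5 (ENSG00000112029; chr6:152970519-152983579, − strand), which blocks both co-activator forms of the complex before mitosis, had the largest fall of the 10 genes. Its FPKM was 13.6, 14.6 and 14.5 in DMSO, 11.9, 13.7 and 13.0 at 0.3 μM and 9.15, 10.6 and 10.5 at 1 μM. The samples at 1 μM were below all 6 others, while those at 0.3 μM overlapped the DMSO range at its lower edge. The counts at 1 μM were 645, 701 and 684, beside 902, 1017 and 946 in DMSO. The log2 fold change was −0.51 (SE 0.08, 95% interval −0.68 to −0.35, edgeR adjusted p = 0.00052), leaving 70.9% of the DMSO FPKM. Over 14 other settings it ran from −0.55 to −0.44 and passed the test in each.

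Securin and separase gave a smaller pattern that did not pass the test. PTTG1 (ENSG00000164611; chr5:160421822-160428744, + strand) had FPKM of 88.7, 101 and 96.9 in DMSO, 83.9, 91.6 and 95.4 at 0.3 μM and 94.4, 92.2 and 102 at 1 μM. All 3 groups overlapped, and the fold at 1 μM was 0.998 (95% interval 0.909 to 1.10, adjusted p = 0.978), so a change beyond those bounds lies outside the interval. ESPL1 (ENSG00000135476; chr12:53268299-53293643, + strand) had FPKM of 17.7, 16.3 and 16.0 in DMSO, 17.2, 16.1 and 13.5 at 0.3 μM and 13.3, 15.2 and 15.8 at 1 μM. The samples at 1 μM were all below DMSO, by a narrow gap, and overlapped those at 0.3 μM.

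The log2 fold change of ESPL1 was −0.19 (SE 0.07, 95% interval −0.34 to −0.04, adjusted p = 0.0776), and it was called lower when protein-coding genes alone were tested (−0.21, adjusted p = 0.0471). With UBE2C and FBXO5, ESPL1 made 3 of 10 genes whose FPKM did not overlap between 1 μM and DMSO, beside 37.0% of all genes tested. The log2 ratio of PTTG1 to ESPL1 was 2.51 ± 0.16 in DMSO and 2.70 ± 0.11 at 1 μM (SD, n = 3; exact permutation p = 0.2, 0.4 adjusted).

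**Figure D2:**
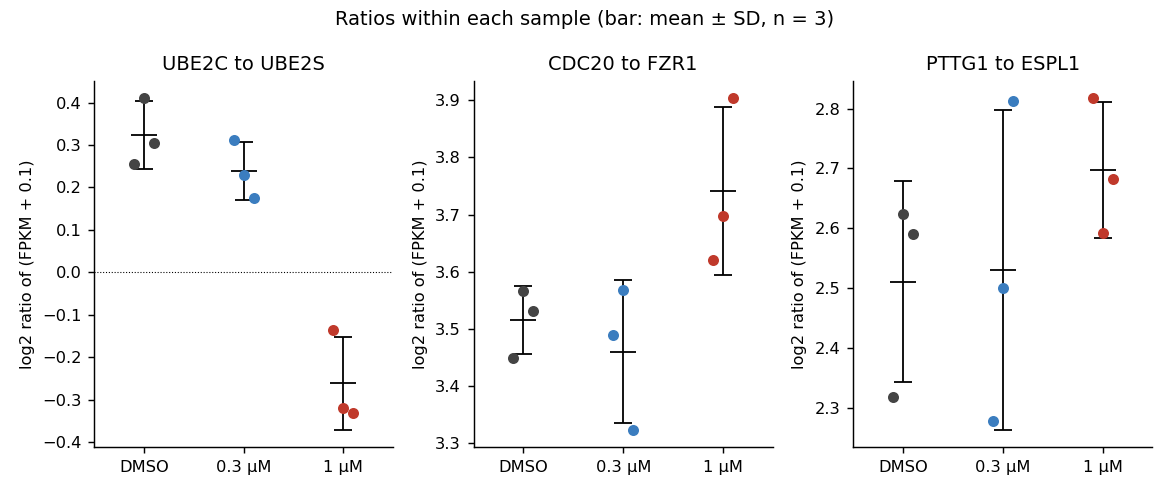
Log2 ratio of (FPKM + 0.1) within each sample (vertical axes, not starting at 0) for 3 pairs of genes, by group (horizontal axes); points are samples and bars are mean ± SD with n = 3. For UBE2C to UBE2S the samples at 1 μM lie between −0.33 and −0.12, below the DMSO samples at 0.25 to 0.41. The position of 0 depends on the deposited gene lengths.

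The subunits of the ligase itself did not pass the test. CDC27, which carries a docking site for the co-activators, had FPKM of 14.9, 17.0 and 17.1 in DMSO and 17.1, 16.0 and 17.1 at 1 μM (log2 fold change 0.02, 95% interval −0.12 to 0.16, adjusted p = 0.884). ANAPC1, the large scaffold subunit, had 7.11, 7.82 and 7.53 in DMSO and 7.21, 7.48 and 6.76 at 1 μM (−0.08, −0.22 to 0.05, adjusted p = 0.395). ANAPC11, the RING subunit that engages the E2 enzymes, had 23.4, 21.1 and 22.0 in DMSO and 22.4, 23.7 and 20.3 at 1 μM (−0.02, −0.17 to 0.13, adjusted p = 0.893). The groups overlapped for each of the 3 subunits. At 0.3 μM their FPKM were 15.4, 16.6 and 15.4 for CDC27, 7.04, 7.23 and 6.62 for ANAPC1 and 26.2, 22.6 and 21.8 for ANAPC11, which also overlapped the other groups. ANAPC11 shares 797 bases with ALYREF on the opposite strand, so its level has the same uncertainty as that of UBE2S.

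The 0.3 μM dose was compared with DMSO in the same way. None of the 10 genes was called by edgeR (0 of 10, adjusted p = 0.995 for each), as for 0% of the 15762 genes tested. The count of the 10 was also 0 by DESeq2 and 0 at an unadjusted p under 0.05, a level that 3.77% of all genes passed. The log2 fold changes ranged from −0.15 (FBXO5, 95% interval −0.32 to 0.03) to 0.10 (FZR1, −0.08 to 0.29), and that of UBE2C was −0.05 (−0.19 to 0.09). The groups overlapped for all 10, beside 8.39% of genes for which they did not.

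Between the doses the same 2 genes differed, 2 of 10 beside 12.6% of 15583 genes tested. UBE2C was lower at 1 μM than at 0.3 μM by a log2 fold change of −0.39 (SE 0.06, adjusted p = 0.000805) and FBXO5 by −0.36 (SE 0.08, adjusted p = 0.0111). These were also the 2 genes whose FPKM did not overlap between the doses, beside 31.7% of all genes. The FBXO5 call was lost without replicate 2 at 0.3 μM (−0.31, adjusted p = 0.0598) or replicate 1 at 1 μM (−0.29, adjusted p = 0.0652). The comparisons share groups of samples, so their values for these genes are not independent.

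**Figure D3:**
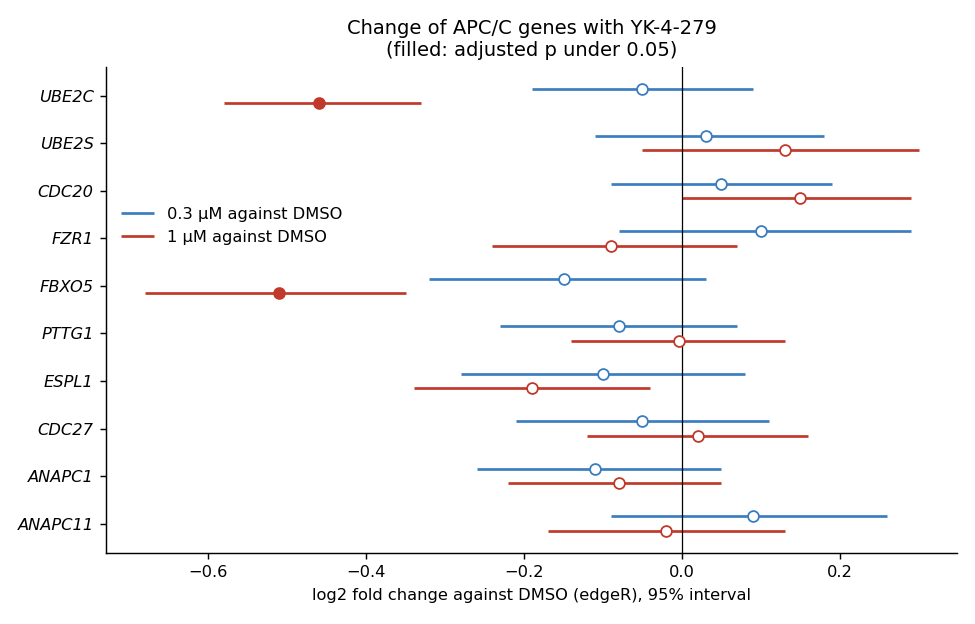
Log2 fold change against DMSO from edgeR (horizontal axis) with its 95% interval (lines) for the 10 genes (vertical axis), at 0.3 μM in blue and 1 μM in red; filled points have an adjusted p under 0.05. The filled points are UBE2C at −0.46 and FBXO5 at −0.51, both at 1 μM.

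The wider pathway was read from lists written by textbook role. No core subunit passed the test at 1 μM, with 0 of 14 called by edgeR, 0 by DESeq2 and 2 at an unadjusted p under 0.05. Of all genes tested edgeR called 17.6%, and 31.9% had an unadjusted p under 0.05. The median log2 fold change of the subunits was −0.03, beside −0.01 over all genes tested. ANAPC4 was nearest to the threshold (−0.29, SE 0.10, adjusted p = 0.0529) and was chosen after its values were seen. Leaving out DMSO replicate 1 or 2, or testing protein-coding genes alone, gave 1 lower subunit. Of the 3 E2 enzymes known to work with the complex, UBE2D1 rose from 7.66 ± 0.569 to 9.53 ± 0.508 FPKM (SD, n = 3; log2 fold change 0.30, adjusted p = 0.0243), a call kept in 9 of 14 other settings. It was lost under the replicate block, without DMSO replicate 1 or 3 and without replicate 1 or 3 at 1 μM, with adjusted p up to 0.0971. UBE2D1 is an E2 of broad use and can stand in for UBE2C in starting chains.

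Among the inhibitors and spindle checkpoint genes 3 of 11 fell and 1 rose, beside 9.95% lower and 7.67% higher of all genes tested. The 3 that fell were FBXO5, already described above, FBXO43 and TTK. The median of the list was −0.12, beside −0.01 over all genes tested. FBXO43, the relative of FBXO5 known from meiosis, went from 2.12 to 2.93 FPKM in DMSO to 1.61 to 1.70 at 1 μM (log2 fold change −0.65, SE 0.14, adjusted p = 0.00681), at a low level throughout. TTK, the kinase that starts checkpoint signalling at kinetochores, went from 20.1 ± 2.16 to 15.1 ± 1.03 FPKM (−0.43, adjusted p = 0.00234). MAD2L1BP, which helps to switch the checkpoint off, rose from 8.95 ± 1.40 to 11.6 ± 0.624 FPKM (0.36, adjusted p = 0.0386), and this call held in 8 of 14 other settings. It was lost with limma on FPKM, without DMSO replicate 2 or 3 and without any of the samples at 1 μM, with adjusted p up to 0.13. BUB1, the most abundant gene of the list, had a log2 fold change of 0.02 (adjusted p = 0.869), and MAD2L1 one of −0.18 (adjusted p = 0.0565).

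Of 34 known substrates of the complex 14 fell, 2 rose and 18 did not pass the test at 1 μM at the mRNA level, beside 9.95% lower and 7.67% higher of all genes tested. The list had a median log2 fold change of −0.16, and without UBE2C, CDC20 and PTTG1, which are themselves substrates, 13 of 31 fell and 2 rose. Of the substrates that fell, UBE2C, AURKB, NUSAP1, ANLN, CDCA3, CENPF and TOP2A are also on the list of genes of G2 and mitosis below. CDC6 and RRM2, which fell too, are also on the S phase list, so the counts of these lists are not separate results. TOP2A, which untangles sister DNA, went from 142 ± 12.0 to 98.1 ± 1.98 FPKM (SD, n = 3; −0.55, SE 0.06, adjusted p = 6.2e-05). AURKB, the kinase of the chromosomal passenger complex, went from 48.3 ± 2.25 to 33.6 ± 0.435 (−0.54, SE 0.06). PRC1, a microtubule bundler of the midzone, had the largest fall (−1.14, SE 0.18), but it overlaps AC068831.7 on the same strand and had a mean of 92.3 counts, so its reads may be divided. CENPF, a kinetochore protein, ranged from 31.2 to 42.3 FPKM in DMSO and from 13.9 to 31.8 at 1 μM (−0.81, SE 0.22, adjusted p = 0.0201). The CENPF groups overlapped, and the call was lost with DESeq2 (adjusted p = 0.186), with limma on FPKM and without replicate 1 or 3 at 1 μM.

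The substrates that rose were AURKA, a spindle pole kinase (87.9 ± 3.21 to 104 ± 2.34 FPKM, log2 fold change 0.23, adjusted p = 0.00876), and CCNB1, cyclin B1 (159 ± 8.99 to 186 ± 4.07, 0.21, adjusted p = 0.0205), both named after their values were seen. The AURKA call held in 14 of 14 other settings and that of CCNB1 in 10. CCNB1 was not called without DMSO replicate 1 or 3 or replicate 2 or 3 at 1 μM, where its adjusted p ran up to 0.0893. By mean FPKM over all samples CDC20 was the most abundant substrate gene, and TPX2, a spindle assembly factor and the next in level, had a log2 fold change of −0.05 (adjusted p = 0.57). Transcript levels of substrates do not show how much protein the APC/C removed.

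Genes that act on the complex or on FBXO5 from outside moved both ways, with 3 of 11 tested lower and 2 higher. Of all genes tested 9.95% were lower and 7.67% higher. The median of the list was 0.06, beside −0.01 over all genes tested. CDK1, which phosphorylates the complex in mitosis, went from 67.3 ± 6.91 to 42.4 ± 2.16 FPKM (log2 fold change −0.68, SE 0.07). CCNF, whose ligase targets FZR1, had −0.40 (adjusted p = 0.00522) and CDK2 −0.35 (adjusted p = 0.00166). CUL1, the scaffold of SCF ligases, rose by a log2 fold change of 0.23 (adjusted p = 0.0116), and FBXW11, an F-box protein that targets FBXO5, by 0.19 (adjusted p = 0.0301). The CUL1 call was lost without DMSO replicate 3 or replicate 3 at 1 μM, and that of FBXW11 also without replicate 1 of either group and under the replicate block, with adjusted p up to 0.111. FBXW11 lies outside the rule by which genes were named. BTRC, its relative on the same list, did not pass the test (0.22, edgeR adjusted p = 0.123) and was called in 0 of 14 other settings. USP44 did not pass the filter on low counts. RAD21, the cohesin subunit that separase cuts, was at 151 ± 6.12 FPKM in DMSO and 159 ± 1.98 at 1 μM (0.06, adjusted p = 0.489).

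**Figure D4:**
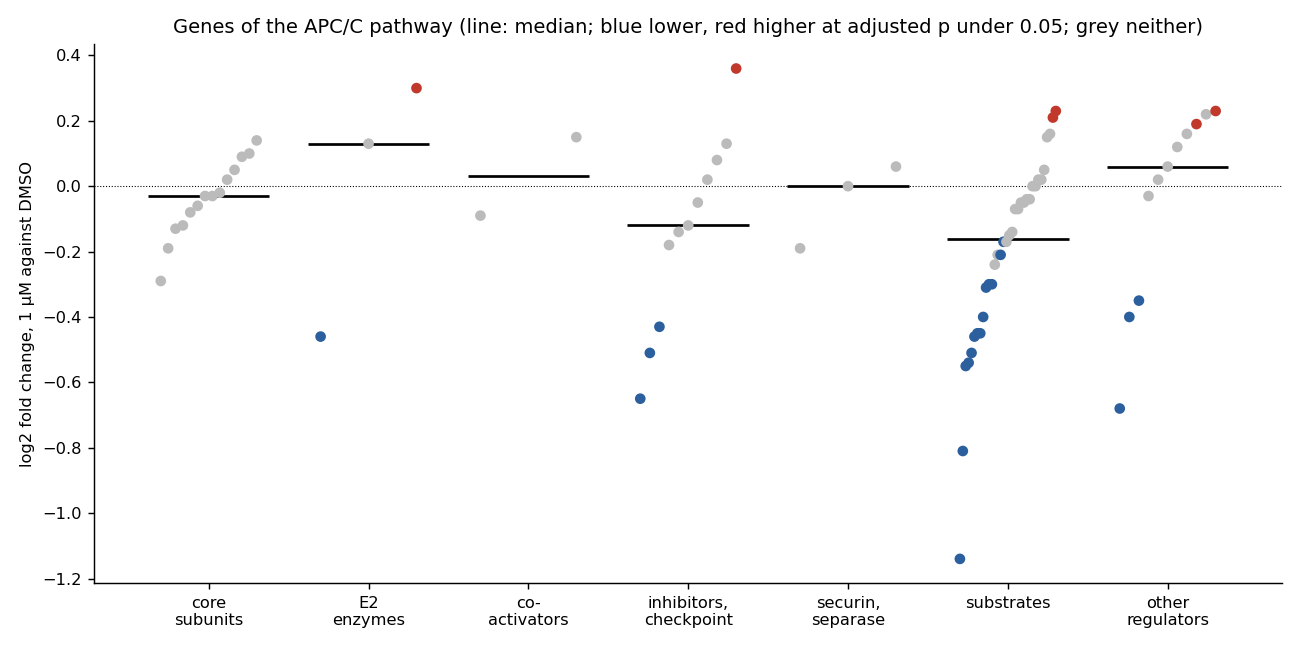
Log2 fold change at 1 μM against DMSO (vertical axis) of each tested gene in 7 lists of the APC/C pathway (horizontal axis); blue points were lower and red points higher at an adjusted p under 0.05, grey points neither, and black lines are list medians. The core subunits have no coloured point, and 14 of the 34 substrates are blue.

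Of the 10 genes, UBE2C and CDC20 are on the list of genes of G2 and mitosis (G2/M). Each of the 10 genes was also set against the other G2/M genes in the same sample, a reading added after the data were seen. Of the 52 genes of the G2/M list 25 fell and 2 rose, beside 9.95% lower and 7.67% higher of all genes tested. The list had a median log2 fold change of −0.18, beside −0.01 over all genes tested. Some G2/M genes that fell, such as TOP2A, AURKB, TTK and CDK1, were already counted in the lists above. Without DMSO replicate 3 or replicate 1 at 1 μM, 16 and 15 genes of the G2/M list fell. The mean of the 50 that are not among the 10 genes changed by −0.23 in log2 CPM at 1 μM. Relative to that mean, UBE2C was at −0.22 and FBXO5 at −0.28, whereas CDC20 was at 0.38, UBE2S at 0.36 and PTTG1 at 0.23. The subunits CDC27, at 0.25, and ANAPC1, at 0.15, did not overlap between groups either, and a gene with no change of its own lies above 0 on this scale because the G2/M mean fell. For these 7 of the 10 genes, beside 51.7% of all genes tested, the samples did not overlap, and the exact permutation p was 0.1 for each, the smallest possible (0.2 adjusted over 30 tests). FZR1 (0.15), ANAPC11 (0.21) and ESPL1 (0.04) overlapped between groups.

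The promoters of 4 of these genes hold shared short motifs, and their sequences are shown because FBXO5, which fell, and CDC20, PTTG1 and ESPL1, which did not pass the test, all hold them. Genes of G2 and mitosis often carry a cell cycle genes homology region (CHR), searched as TTTGAA or TTTAAA, and CCAAT boxes (CCAAT). An ETS core (CCGGAAG), the element read by the factors that YK-4-279 is meant to inhibit, and an E2F motif (TTTCCCGC or TTTGGCGC) were searched too, each on both strands in the 250 bases before each RefSeq start. RefSeq promoters (GRCh38.p14) were found for 9 of the 10 genes, all but UBE2C, with 15 starts. The 140 bases before a start are printed on the strand of the gene, 5′ to 3′, with matches to the CHR, CCAAT and ETS letters in capitals. They lie at chr1:43358841-43358980 (+) for CDC20, chr12:53268159-53268298 (+) for ESPL1, chr5:160421715-160421854 (+) for PTTG1 and chr6:152983042-152983181 (−) for FBXO5, and none overlaps an exon of its gene in GENCODE v44. In the deposited table, however, CDC20 and PTTG1 start earlier, so that the last 26 and 33 bases of their windows fall inside the gene there, as does the whole window of FBXO5.
CDC20: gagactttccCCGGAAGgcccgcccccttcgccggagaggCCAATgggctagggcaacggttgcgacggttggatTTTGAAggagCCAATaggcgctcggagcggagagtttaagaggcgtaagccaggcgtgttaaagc
ESPL1: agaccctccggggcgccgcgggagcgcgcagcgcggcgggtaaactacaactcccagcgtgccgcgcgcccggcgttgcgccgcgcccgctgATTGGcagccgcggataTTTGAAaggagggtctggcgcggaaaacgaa
PTTG1: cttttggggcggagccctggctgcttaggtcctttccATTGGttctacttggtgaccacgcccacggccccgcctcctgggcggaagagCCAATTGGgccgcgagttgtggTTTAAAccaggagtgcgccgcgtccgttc
FBXO5: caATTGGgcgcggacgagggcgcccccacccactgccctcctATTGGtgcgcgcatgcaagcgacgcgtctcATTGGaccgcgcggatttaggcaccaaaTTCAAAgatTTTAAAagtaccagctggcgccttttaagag

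A CHR match stood close to the start in each of the 4 windows, at −65 to −60 in CDC20, −31 to −26 in ESPL1, −29 to −24 in PTTG1 and at both −40 to −35 and −31 to −26 in FBXO5. Each window also held CCAAT matches, 2 in CDC20, 1 in ESPL1 and 3 each in PTTG1 and FBXO5, where 2 of those in PTTG1 overlap by 2 bases. An ETS core stood at −130 to −124 in CDC20 and in none of the other windows printed. FBXO5 has a second, upstream start, whose window of 250 bases held an ETS core at −215 to −209 and no CHR.

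Over the 250 bases, 5 of the 9 genes held a CHR, 7 a CCAAT box, 4 an ETS core and 0 the E2F letters at some start. By promoter the shares were 40% for CHR, 66.7% for CCAAT and 33.3% for the ETS core, beside 15.4%, 32.5% and 13.5% of 15567 promoters of genes tested at 1 μM and 21.9%, 32% and 8.52% of all 35116 promoters. A pair of ANAPC11 starts share the same ETS matches, so these promoters are not independent. In the G2/M list 63.6% of 55 promoters held a CHR, and in the core subunits 8% of 25 did. The 4 genes with an ETS core were FBXO5, which fell at 1 μM, and CDC20, CDC27 and ANAPC11, which did not pass the test. A match is a run of letters and not evidence that a factor binds.

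The genes whose levels followed UBE2C most closely over the 9 samples were sought among 9694 genes with a mean of at least 10 CPM. By Pearson's r of log2 CPM they were CYTH2 (0.987), CHEK2 (0.986), INCENP (0.982), PANK4 (0.98) and CEP152 (0.974). INCENP, the scaffold of the chromosomal passenger complex, was the most abundant of these, at 55.4 FPKM in DMSO and 41.4 at 1 μM, and CEP152, a centriole duplication protein, had the largest fall (log2 fold change −1.19, SE 0.09). FBXO5 had an r of 0.924 and ranked 124th, FZR1 0.529, ESPL1 0.514, PTTG1 −0.169, UBE2S −0.253 and CDC20 −0.481. These values describe 9 samples that share the treatment groups and carry no test.

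UBE2C was also set within its enzyme family, genes whose symbols start with UBE2, a list added after the data were seen. Of 31 tested 7 rose and 4 fell at 1 μM, beside 7.67% higher and 9.95% lower of all genes tested. The family had a median log2 fold change of 0.12, beside −0.01 over all genes tested. The 4 that fell were UBE2V1 (−1.02, SE 0.15), UBE2C, UBE2T (−0.29) and UBE2A (−0.22), and UBE2C was the most abundant gene of the family in DMSO. UBE2F rose by a log2 fold change of 0.53 (SE 0.16, adjusted p = 0.038) from 1.51 ± 0.272 FPKM, and UBE2G1 by 0.41 (SE 0.07, adjusted p = 0.00161) from 8.02 ± 0.410. The UBE2F call was lost without DMSO replicate 2 or 3 or replicate 1 or 2 at 1 μM (adjusted p up to 0.127), that of UBE2G1 held in 14 of 14 other settings, and over these settings 2 to 8 genes rose and 3 to 4 fell.

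**Figure D5:**
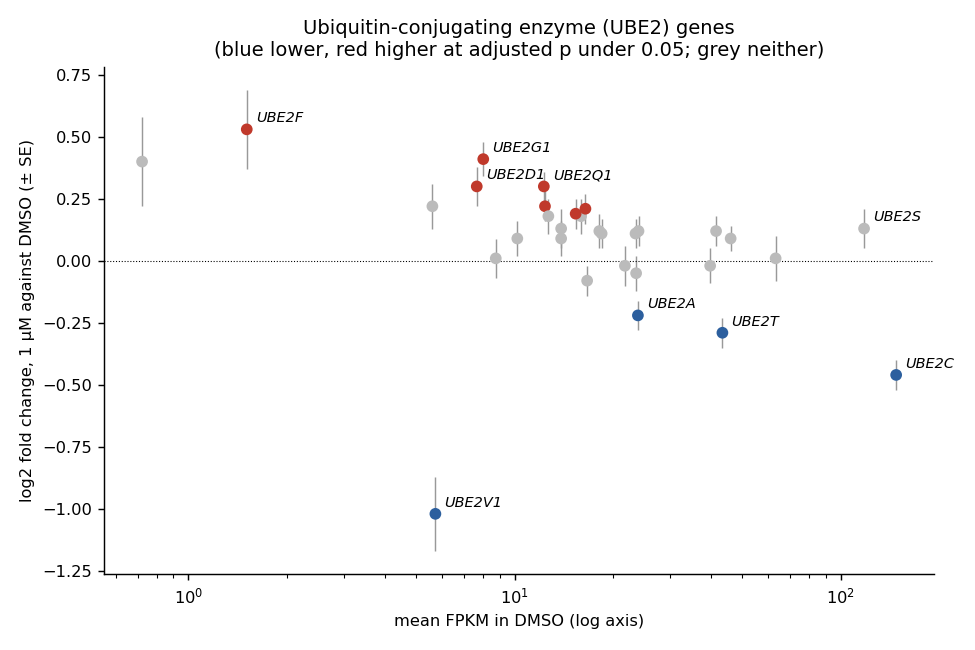
Log2 fold change at 1 μM against DMSO (vertical axis, ± SE from edgeR) and mean FPKM in DMSO (horizontal log axis) of 31 UBE2 genes; blue points were lower and red higher at an adjusted p under 0.05, grey neither. UBE2C, at 148 FPKM and −0.46, is the rightmost point, and UBE2S, at 118 FPKM and 0.13, is next to it.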

How the data were processed

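RNA-seq of the 9 samples was analysed from the table the authors deposited, which holds read counts and FPKM values per gene and sample. The authors aligned trimmed reads to GRCh38 with Hisat2 (2.0.5 per the submitters' notes). The methods name HTseq for the counts deposited, whereas the notes name featureCounts 1.5.0-p3, so the counter and its use of strand are uncertain. The methods also name 2 biological replicates per condition, and the labels give 3 samples, which were all used. The authors' FPKM values divide counts by gene length and library size. Their fold changes, p-values and adjusted p-values from DESeq2, for which the methods and the notes give different versions, were not used here.

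Groups were compared with edgeR 4.0.16 (R 4.3.3): filterByExpr with a minimum count of 10, TMM, glmQLFit and glmQLFTest on the 2 groups compared, and Benjamini-Hochberg adjustment over all genes tested. Standard errors and 95% intervals come from the same fit. Ratios used log2(FPKM + 0.1) and a two-sided exact permutation test (scipy 1.17.1). On simulated data for 1 μM, edgeR recovered 125 of 200 genes changed by a log2 of 0.6 (10 false calls, 15350 genes), and 165 of 200 changed by 1 (15 false calls, 15362 genes).

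Named genes are the 10 genes, up to 4 called genes with the largest change per list plus its most abundant gene, and the 5 genes most like UBE2C. Others, such as ANAPC4, AURKA, CCNB1, FBXW11 and BTRC, were named outside this rule. The genes and lists were chosen with earlier results of these data known. Alternatives were DESeq2 1.42.0, RLE factors, no filter, all 9 samples, a replicate block, protein-coding genes only, summed pseudogene copies, FPKM with limma 3.58.1, each sample left out, the unadjusted p and a 1.5-fold cutoff. A planned reading of protein motifs was not run, and some genes of the lists are not reported here.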

Additional observations from a re-analysis of the deposited data

How the results depend on the processing

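The counts of called genes were 2 at 1 μM, 0 at 0.3 μM and 2 between the doses, and most alternatives gave counts within 1.5 times of these. With a 1.5-fold cutoff as well, 0 of the 10 genes were called at 1 μM and 0 between the doses. With single samples left out, 2 to 4 genes were called at 1 μM, 0 at 0.3 μM and 1 to 2 between the doses. The 4 came without replicate 1 at 1 μM, which added UBE2S and CDC20. The labels do not say whether replicate numbers pair the samples. Same-numbered samples correlated between −0.0217 and 0.0817 in their deviations from the group means, and the others between −0.0692 and 0.0376. Between DMSO and 0.3 μM the same-numbered pairs ran from 0.0198 to 0.0817 and the others from −0.0692 to 0.00559. With the replicate block 2, 0 and 2 of the 10 genes were called, while the calls over all genes at 1 μM went from 2752 to 2120. Genes with an unadjusted edgeR p under 0.05 at 0.3 μM went from 594 to 1004. With single samples left out, the share of all genes called ran from 10.5% (without DMSO replicate 3) to 18.6% at 1 μM and from 5.92% (without replicate 3 at 1 μM) to 11.8% between the doses; at 1 μM leaving out any of its own samples gave 10.9% to 11.8%, and between the doses leaving out replicate 2 at 0.3 μM, replicate 1 or replicate 2 at 1 μM gave 6.98% to 7.89%.

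Signs reversed only for values that passed no test. PTTG1 at 1 μM took values of 0.00213 (DESeq2), 0.00215 (RLE size factors), 0.02 (no filter), 0.00301 (all 9 samples) and 0.01 (FPKM), and with single samples left out it ran from −0.05 to 0.04. CDC27 ran from −0.04 to 0.05 with samples left out. ANAPC11 took 0.01 with no filter and ran from −0.07 to 0.04 with samples left out. With samples left out at 0.3 μM, UBE2S ran from −0.03 to 0.07 and ESPL1 from −0.17 to 0.000659, and between the doses ANAPC1 ran from −0.01 to 0.08. At 0.3 μM the ratio of CDC20 to FZR1 ran from −0.11 to 0.02 and that of PTTG1 to ESPL1 from −0.12 to 0.15. The cause was not tested. With 3 samples a group, exact tests could not go below p = 0.1.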

Other observations

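Genes of S phase, when FBXO5 keeps the APC/C inactive, were lower at 1 μM: 32 of 41 tested fell and 0 rose by edgeR, with a median log2 fold change of −0.31, beside 9.95% of all genes tested that were lower. Over the alternatives 22 to 33 of them fell. CDC6 and RRM2 are among the 32 and were also counted as substrates above. CASP8AP2 had the largest fall (log2 fold change −0.80, SE 0.13), followed by HELLS (−0.65, SE 0.09), CDC45 (−0.62, SE 0.07) and BRIP1 (−0.60, SE 0.08). HELLS, a chromatin remodeller, overlaps TBC1D12 on the same strand, so its reads may be divided. CDC45, a part of the replicative helicase, went from 24.9 ± 0.440 to 16.3 ± 1.28 FPKM (SD, n = 3). PCNA, the sliding clamp of DNA polymerases and the most abundant gene of the list, went from 160 ± 4.92 to 131 ± 7.72 FPKM (−0.31, adjusted p = 0.00244).

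In the G2/M list the largest falls were those of the kinesins CENPE (−1.11, SE 0.28, adjusted p = 0.0149) and KIF20B (−0.91, SE 0.28, adjusted p = 0.0372), then CENPF and CDK1. CENPE ranged from 6.11 to 10.4 FPKM in DMSO and from 2.35 to 6.26 at 1 μM, and the groups overlapped. The calls of both kinesins were lost with DESeq2 (adjusted p = 0.132 and 0.238), with limma on FPKM and without replicate 1 or 3 at 1 μM, and that of KIF20B also without DMSO replicate 2 or 3. TUBB4B, a beta-tubulin and the most abundant gene of the list, was at 283 ± 5.28 FPKM in DMSO and 257 ± 6.63 at 1 μM (−0.16, adjusted p = 0.0503).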
